A study of Glycine max with 2 samples.

Results

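Differentially methylated regions (DMRs) between the cytoplasmic male sterile (CMS) soybean line NJCMS5A and its maintainer NJCMS5B lay either on the assembled chromosomes or on unplaced scaffolds, and those on Chr01 to Chr20 are described here. They were chosen by the name of their sequence alone, and numbered 311 of the 3527 DMRs in the deposited table, with the other 3216 on scaffolds. Genomic DNA came from flower buds of different sizes, pooled within each line at the full-bloom stage, so that anther, ovary and sepal cells were mixed. NJCMS5A carries a sterility-inducing cytoplasm and NJCMS5B is its fertile counterpart. Each line was measured in 1 whole-genome bisulfite library. Hence there was no replicate error, and a difference between the lines cannot be told apart from a difference between the 2 libraries or the 2 pools of buds.

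Bisulfite turns unmethylated cytosine into uracil, which is read as thymine, whereas methylated cytosine is still read as cytosine. The methylation level of a DMR is thus the methylated part of all its cytosine calls. Plants methylate cytosine in the CG, CHG and CHH contexts (H is any base but G), kept respectively by the MET1, CMT3 and DRM2 or CMT2 methyltransferases in Arabidopsis, and heavy methylation marks transposons and repeats around the centromere. Methylation in a promoter often goes with a silent gene, while methylation of CG sites within gene bodies occurs in many expressed genes. In CMS, a chimeric mitochondrial gene blocks pollen formation, and nuclear restorer genes, many of them pentatricopeptide repeat (PPR) genes, can bring fertility back. The DMR table did not separate the 3 contexts.

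The 311 DMRs covered 286125 bp and 54018 cytosines, with 791121 cytosine calls in NJCMS5A and 888417 in NJCMS5B. The median depth per cytosine was 10.2 in NJCMS5A and 9.97 in NJCMS5B, and in both libraries no DMR had a depth below 5. The table itself was selected on the contrast described here. Over all 3527 DMRs the smallest difference was 10 percentage points, the smallest ratio of the higher to the lower level was 2 and the smallest number of cytosines was 10. The sizes of the differences are therefore a description of called regions, and levels of uncalled regions were not analysed here.

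Bisulfite primers of the study without mixed bases lay in 18 of these DMRs, and inner or outer pairs for 5 of the DMRs in or beside genes described below are shown, 5′ to 3′. They stand for the DMR sequence after conversion, in which an unmethylated cytosine of the top strand has become t. A forward primer without c and a reverse primer without g match converted DNA in which the cytosines they cover were unmethylated, and 72 of the 80 primers listed for chromosome regions were of this kind. The study read clones made with its primers and reports that most, but not all, regions had the direction of the sequencing. Nothing is in capitals, because the feature shown is the absence of a base along the whole run.
Glyma.08G317600 promoter DMR, inner forward: aagtagtaattagatattgatgataaatag
Glyma.08G317600 promoter DMR, inner reverse: cttaatttccatctcctcaccctaaa
Glyma.10G248800 promoter DMR, inner forward: ggaaatgtgtaatgtgtataaagaaggaag
Glyma.10G248800 promoter DMR, inner reverse: caattcaattctacaacaacaattatttac
Glyma.14G073000 promoter DMR, inner forward: ttgaatgatattgaattaaaagatgataa
Glyma.14G073000 promoter DMR, inner reverse: ataattctttctacctccattacatcac
Glyma.16G081800 gene and promoter DMR, inner forward: ttttttgttgataaagtgtaggaga
Glyma.16G081800 gene and promoter DMR, inner reverse: aaccaaaatctactcattatcattacct
Glyma.17G235400 and Glyma.17G235500 promoter DMR, outer forward: ggatggaatgtaatatggttggtgg
Glyma.17G235400 and Glyma.17G235500 promoter DMR, outer reverse: ccaaataaatacaacaatcattacaaattc

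Most chromosome DMRs were hypo-methylated in NJCMS5A, that is, lower there than in NJCMS5B. Of the 311, 218 were lower in NJCMS5A and 93 were higher, a hypo-methylated share of 70.1% (95% Wilson interval 64.8 to 74.9, counting error only). On scaffolds 1749 of 3216 were hypo-methylated, a share of 54.4% (52.7 to 56.1). DMRs are not replicates of a line, so no test of this difference was made. The excess of hypo-methylated DMRs was smaller among the 33 chromosome DMRs that differed by 15 points or more, where 19 were lower in NJCMS5A, with 7 of the 8 that had a gene and 12 of the 25 that had none. The median level over chromosome DMRs was 9.32% in NJCMS5A and 15.7% in NJCMS5B.

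The chromosome DMRs mostly differed by little more than the table required. Their levels pool the CG, CHG and CHH contexts, so a low level need not mean weak methylation in each context. They were not compared with the level of the whole genome. The level in the library with less methylation had a median of 7.27%, and that in the other library a median of 18.6%, with quartiles of 15.05 and 21.1%. The absolute difference had a median of 10.9 percentage points, against 17.6 on scaffolds. It was below 11 points in 161 DMRs, or 51.8%, whereas 345 scaffold DMRs, or 10.7%, were that close to the limit. A difference of at least 15 points was found in 33 chromosome DMRs (10.6%) and 2036 scaffold DMRs (63.3%). At the limit itself, the DMRs at Chr05:20600687-20601683, Chr09:6074192-6075281 and Chr17:39052154-39053150 differed by 10 points to the nearest whole number and were lower in NJCMS5A, and those at Chr07:8350865-8351858, Chr16:28084933-28086330 and Chr13:19743925-19745019 were higher by the same amount.

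**Figure D1:**
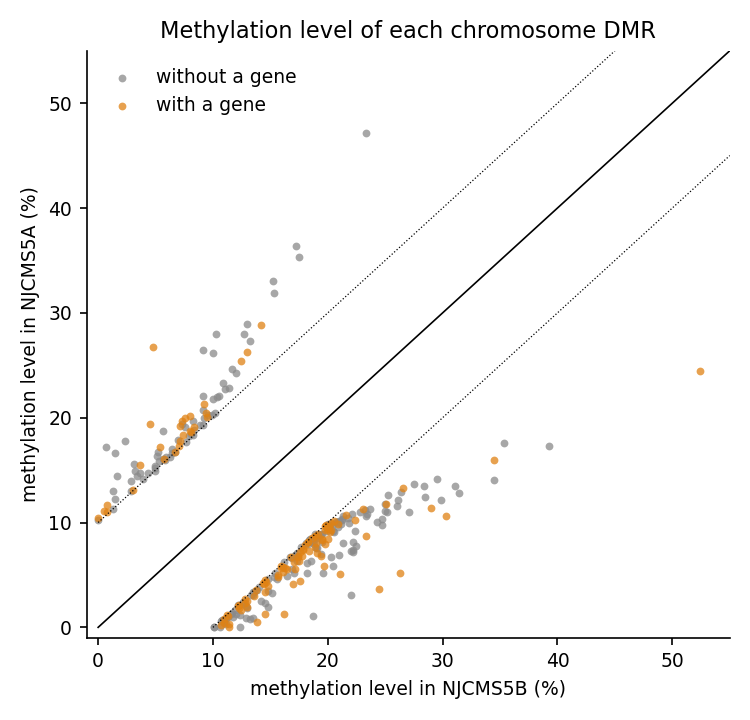
Methylation level of each of the 311 chromosome DMRs in NJCMS5B (x axis, %) and NJCMS5A (y axis, %), coloured by whether a gene was annotated. The solid line marks equal levels and the dotted lines a difference of 10 points, and most points lie just beyond a dotted line, with 218 below and 93 above.

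A two-sided Fisher's exact test on the calls of either kind, adjusted over all 3527 DMRs by Benjamini-Hochberg, called 311 of 311 chromosome DMRs at 0.05. Over the whole table it called 100% as well, and the DMRs had entered the table by a test of the same reads, so this is no new evidence. Calls on the same read are not independent. When each cytosine was counted once, 163 of the 311 were called, or 52.4%, against 82.8% of all DMRs. Of the 184 DMRs with at least 50 cytosines 163 were called in this way, and of the 127 smaller ones 0 were called, although all 127 passed when every call was counted. The cytosine number is the sample size when each is counted once. DMRs with few cytosines and a difference near the limit could thus hardly be called. Both versions compare 2 libraries only.

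On 19 of the 20 chromosomes the hypo-methylated DMRs outnumbered the hyper-methylated ones. Chromosome 6 held the most DMRs, 25, of which 22 were hypo-methylated. Chromosomes 4 and 19 followed with 22 each, and 17 were hypo-methylated on both. All 8 DMRs of chromosome 5 were hypo-methylated, as were 14 of 15 on chromosome 10 and 10 of 11 on chromosome 11. Chromosome 20 was the exception, with 7 hypo-methylated and 9 hyper-methylated DMRs. There the median level was 14.8% in NJCMS5A and 10.1% in NJCMS5B, and among its 10 DMRs with at least 50 cytosines 3 were hypo-methylated. Chromosome 14 was nearly balanced, with 8 and 7. The smallest number, 8, was found on chromosomes 5 and 15.

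**Figure D2:**
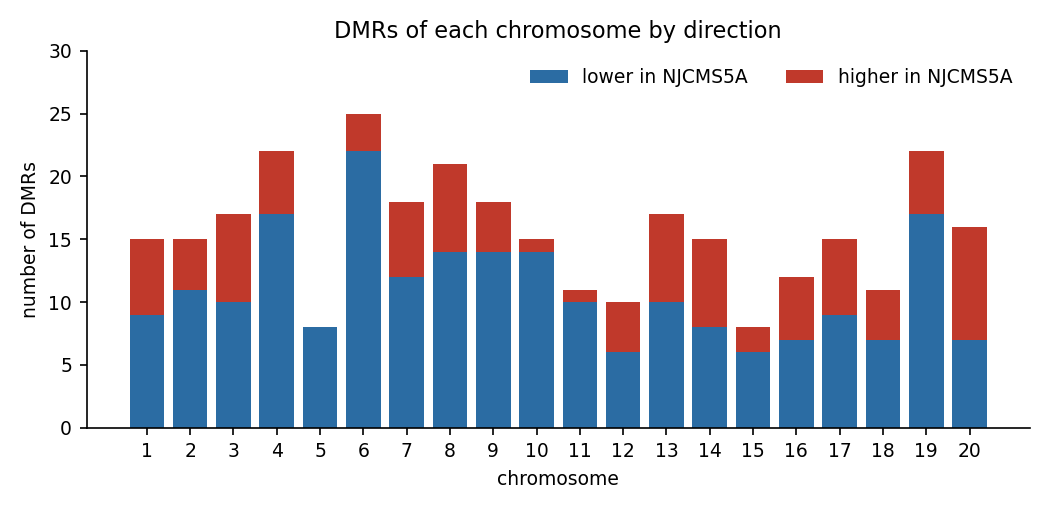
Number of DMRs on each of the 20 chromosomes, stacked by direction. Chromosome 6 reaches 25 with 22 lower in NJCMS5A, chromosome 5 has none that is higher, and chromosome 20 alone has more DMRs that are higher in NJCMS5A.

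Gene content also differed between chromosomes. Chromosome 19 had 13 DMRs with an annotated gene, chromosome 7 had 12 of its 18, and chromosomes 4 and 6 had 11 each. Chromosome 1 had 1 of 15, and chromosome 12 had 0 of 10. These 2 chromosomes also held the fewest DMRs with at least 50 cytosines, 3 each.

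The median length of the DMRs was 986 bp, with a range from 28 to 5497 bp. There were 198 DMRs of at least 800 bp, and 83 of them lay from 900 to just under 1000 bp. A further 46 measured from 200 to just under 800 bp, and 67 were shorter than 200 bp. The hypo-methylated share was 71.2% (64.5 to 77.1) in the long class, 67.4% (53.0 to 79.1) in the middle class and 68.7% (56.8 to 78.5) in the short class, with intervals that overlap throughout. The short DMRs rested on far less data, since their median was 15 cytosines at a depth of 7.09 in NJCMS5A and 6.62 in NJCMS5B, against 221 cytosines at 11.5 and 11.1 in the long class. In the middle class the counted cytosines were sparse, with a median of 6.78 per 100 bp compared with 16.5 in the short class and 19.6 in the long class. Such a count can depend on coverage as well as on base content, and these were not told apart.

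Both ends of the length range were hyper-methylated in NJCMS5A. The longest DMR, Chr16:26320056-26325552, had the most cytosines too, 1480, with 19.2% methylation in NJCMS5A (interval 18.7 to 19.8) and 7.13% in NJCMS5B (6.75 to 7.53). The shortest, of 28 bp at Chr13:14006476-14006503, had 15 cytosines and levels of 36.4 and 17.2%. Among the 14 DMRs of at least 2000 bp, 6 were hypo-methylated. The fewest cytosines, 10, occurred for example at Chr01:41194429-41194528, where the level was 14% in NJCMS5A (6.95 to 26.2) and 2.88% in NJCMS5B (1.12 to 7.17), from 50 and 139 calls.

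The DMRs were spread along the whole chromosomes, with more of them, and a larger share with a gene, towards the ends. Because chromosome lengths were not available here, position was taken as a share of the distance to the end of the last DMR. The outer 20% at each end held 161 of 311 DMRs, or 51.8% (46.2 to 57.3). The last DMR of each chromosome lies at the end by this measure, and without these 20 the count was 141 of 291, or 48.5%. Of the 161, 79 had a gene, or 49.1% (41.5 to 56.7), against 36 of the 150 DMRs in the central 60%, or 24.0% (17.9 to 31.4). In soybean, genes are dense on the chromosome arms and sparse around the centromeres. The hypo-methylated share was 74.5% (67.3 to 80.6) in the outer parts and 65.3% (57.4 to 72.5) in the central part, with overlapping intervals. Short DMRs made up 15.5% of the outer and 28.0% of the central DMRs.

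**Figure D3:**
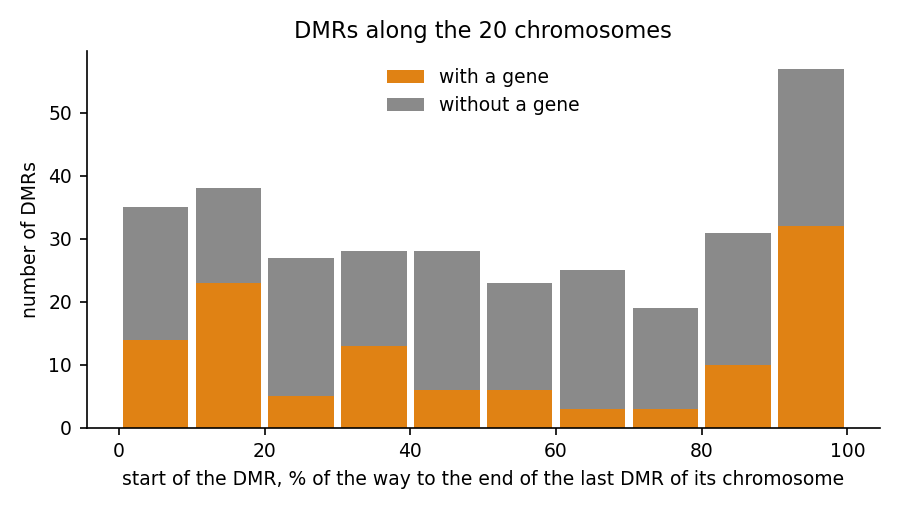
Number of chromosome DMRs by the place of their start, in bars of equal width over the distance (x axis, %) to the end of the last DMR of the chromosome, stacked by whether a gene was annotated. DMRs with a gene concentrate in the outer bars (79 of 161 in the outer 20% at each end) and are few in the central bars (36 of 150).

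A gene was annotated to 115 of the 311 DMRs, or 37.0% (31.8 to 42.5), where a gene counts if the DMR overlaps its promoter, UTR, exon or intron by at least 1 base. Of these 115, 88 were hypo-methylated, a share of 76.5% (68.0 to 83.3), compared with 130 of the 196 DMRs without a gene, or 66.3% (59.5 to 72.6). DMRs with a gene had more data, with a median of 221 cytosines against 38, and a depth of 11.1 in NJCMS5A and 10.9 in NJCMS5B against 9.38 and 8.88. Within the DMRs of at least 50 cytosines, where the depths were alike, the hypo-methylated shares were 78.6% (69.5 to 85.5) of 98 with a gene and 62.8% (52.2 to 72.3) of 86 without. Among those under 50 cytosines the order was the other way, 64.7% of 17 and 69.1% of 110, with intervals of 41.3 to 82.7 and 59.9 to 77.0.

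DMRs that touched a gene only through its promoter had the highest hypo-methylated share. There were 44 of them, and 38 were lower in NJCMS5A, or 86.4% (73.3 to 93.6). Of the other 71 DMRs, which reached into a gene body, 50 were hypo-methylated, or 70.4% (59.0 to 79.8). The 2 intervals overlap. In the central 60% of the chromosomes 10 of 12 promoter DMRs were hypo-methylated but 11 of 24 gene body DMRs, whereas in the outer parts the counts were 28 of 32 and 39 of 47. This split by position was made after the values were seen.

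By functional region, 83 DMRs overlapped a promoter, 58 an exon, 61 an intron, 29 a 5′UTR and 12 a 3′UTR, and a DMR can count in several. The hypo-methylated share was highest for promoters, 67 of 83 or 80.7% (71.0 to 87.8), and lowest for introns, 41 of 61 or 67.2% (54.7 to 77.7). Exons lay between, with 43 of 58, as did 5′UTRs with 22 of 29 and 3′UTRs with 9 of 12. None of these intervals was separate from another. Altogether 141 genes carried a chromosome DMR, of which 110 were hypo-methylated, 30 hyper-methylated, and 1, Glyma.03G264900, had a DMR of each direction.

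In the annotation, 11 of the 145 pairs of a DMR and a gene named a gene whose identifier belongs to another chromosome, such as Glyma.10G106700 at the longest DMR on chromosome 16. All 11 were listed with a UTR only, while 0 of the 134 other pairs had a UTR only. Each of these DMRs also had a gene of its own chromosome, so the count of 115 DMRs did not depend on these pairs. Their placement cannot be checked without the annotation of that build, and these genes are not described singly as genes of a DMR. They are included in the 141 genes, which are 130 without them, and in the counts by GO term further on. A set of 4 genes were annotated to the longest DMR and 3 each to Chr02:4953373-4954468, Chr10:45205007-45206504 and Chr19:38205059-38206034, and every one of these lists held such a name. The last 3 DMRs were hypo-methylated, with 3.54% against 13.8%, 1.13% against 11.3%, and 5.62% against 15.9% in NJCMS5A and NJCMS5B.

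Of 31 genes that the study described by name and that carry the identifier of a numbered chromosome, 26 had a chromosome DMR, 18 of them hypo-methylated and 8 hyper-methylated. The other 5 were annotated to scaffold DMRs, and genes with scaffold identifiers were not counted. The study picked these genes from these libraries, so their directions are no independent evidence.

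Grouped here under transcription and flower development were a MYB gene, a basic helix-loop-helix gene and a transporter gene that the paper proposes to act in the pollen coat. All 3 had lower levels in NJCMS5A, as had 76.5% of the chromosome DMRs with a gene. Of the 17 genes with a DNA binding term given further on, 3 were hyper-methylated, among them a subunit of RNA polymerase. The promoter of Glyma.08G317600, annotated as MYB domain protein 97, one of the MYB factors that in Arabidopsis act in the pollen tube, had a DMR at Chr08:43714800-43715774 with 167 cytosines, for which 2 primers are printed above. Its level was 7.86% in NJCMS5A (6.84 to 9.02) against 18% in NJCMS5B (16.5 to 19.7). The promoter of Glyma.19G144200, a basic helix-loop-helix DNA-binding protein, had 7.20% and 17.6% over 332 cytosines at Chr19:40542572-40544051. Glyma.06G248800, an ABC-2 type transporter, had 8.38% and 19.5% over 167 cytosines across exon, intron and 3′UTR. However, the study lists a region close to this DMR, but outside its coordinates, among those where its bisulfite clones did not match the sequencing. The sequencing values it gives for that region equal those of this DMR to rounding. The intervals of the 2 libraries were apart in all 3, but the DMRs had been selected on these calls, so this is no new evidence.

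The PPR gene of the study that had a chromosome DMR showed the opposite direction. Glyma.16G195100, which the study also predicts to encode a PPR protein and lists as hypo-methylated, was annotated to a scaffold DMR. Glyma.14G212600, of a family whose proteins bind organelle RNA, was methylated at 11.1% in NJCMS5A (9.81 to 12.5) and at 0.506% in NJCMS5B (0.283 to 0.903) over 212 cytosines of its promoter, exon and intron at Chr14:47778771-47780258. It was close to unmethylated in the maintainer. In the neighbourhood, at Chr14:47822878-47825845, Glyma.14G213200, a glutamine synthetase that assimilates ammonium, was also hyper-methylated, with 15.4% in NJCMS5A and 3.65% in NJCMS5B over 686 cytosines.

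Both phosphoenolpyruvate carboxylase genes, which fix bicarbonate onto phosphoenolpyruvate, were hyper-methylated in exon and intron. Glyma.02G130700 had 25.4% in NJCMS5A and 12.4% in NJCMS5B over 170 cytosines (adjusted p from Fisher's exact test with each cytosine counted once, 0.0047). For Glyma.02G117500 the levels were 18.3% and 7.41% over 51 cytosines, with a depth of 12.1 and 6.88, and here the same p was 0.25. They carried an identical set of 19 GO terms.

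All 3 genes named by the study and grouped here under the proteasome and ubiquitin pathway, which tags proteins and degrades them, were hypo-methylated. So were 76.5% of the chromosome DMRs with a gene. Other genes with a ubiquitin ligase term are not in this group. Glyma.14G073000, an alpha subunit of the proteasome, had 5.68% in NJCMS5A and 16.2% in NJCMS5B over 142 promoter cytosines. Glyma.13G059200, a U-box protein of the kind that transfers ubiquitin, had 7.06% and 19.1% over 84. The AAA-type ATPase Glyma.18G186900 shared a DMR at Chr18:44965178-44966166 with the neighbouring Rossmann-fold gene Glyma.18G186800, at 2.74% and 12.8%.

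Cell wall and lipid genes went both ways, with 3 of 4 hypo-methylated. Glyma.04G206000, an oxysterol binding protein, had 2.95% in NJCMS5A (2.47 to 3.51) and 13.6% in NJCMS5B (12.6 to 14.7) across 366 cytosines. Glyma.06G266900, a galacturonosyl transferase, an enzyme class that builds pectin, had 8.40% and 20%, but over 74 cytosines, and its adjusted p with each cytosine counted once was 0.068 (Fisher's exact test). Glyma.18G011500, a beta-ketoacyl reductase of fatty acid elongation, had 6.33% and 17.5% over 930 cytosines, the most of any hypo-methylated DMR. The lipase Glyma.16G081800 was the exception, with 18.8% in NJCMS5A and 7.96% in NJCMS5B over 317 cytosines of promoter and gene body. In the study's bisulfite clones of part of this DMR, however, the lines had nearly the same level.

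Among the other named genes, Glyma.10G248800, a methyltransferase that uses S-adenosyl-methionine, had the largest decrease of these promoters, from 26.6% in NJCMS5B to 13.3% in NJCMS5A over 198 cytosines. In the promoter of Glyma.08G108500 (G10 family protein) the level was 1.17% in NJCMS5A and 11.2% in NJCMS5B. The putative protein kinase Glyma.13G083100 had the reverse, 11.6% and 0.783%. Glyma.07G125300, a subunit of RNA polymerase, held 2 hyper-methylated DMRs in an intron, with 17.3% and 7.01% over 400 cytosines and 19.9% and 7.55% over 25. Glyma.19G261100 (a pyrophosphorylase) had 10.1% and 20.5%, and Glyma.08G305500, called fimbrin-like by the study but listed with transaminase activity in the GO table, had 5.72% and 16.1%. The peroxidase Glyma.17G052900 rested on 17 promoter cytosines with 7.32% and 18.4%, and Fisher's exact test gave an adjusted p of 0.013 over all calls and 0.61 with each cytosine counted once. The longest DMR overlapped the promoter, 5′UTR, exon and intron of Glyma.16G118100, an undecaprenyl pyrophosphate synthetase. It also overlapped these regions and the 3′UTR of Glyma.16G118000, listed with polygalacturonase activity, which degrades pectin. How much of either gene it covered is not known.

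GO terms were given for 106 of the 141 genes, and 85 of these, or 80.2%, were hypo-methylated. Groups of terms, chosen after the data had been seen, are read against that share. All 9 genes with oxidoreductase activity were hypo-methylated, as were 14 of 17 with DNA binding, 22 of 26 with membrane and 8 of 10 with protein kinase activity. Hydrolases were less one-sided, with 12 of 20, and of the 7 lipid metabolism genes 3 were hypo-methylated and 4 hyper-methylated. The hyper-methylated lipid genes included Glyma.20G248000, with triglyceride lipase activity, at 13.1% in NJCMS5A and 3.05% in NJCMS5B, and Glyma.19G064200, with a ceramide metabolism term, at 20.2% and 7.96%. No test was made on these counts, and neighbouring genes can share a DMR. The counts include genes named for another chromosome than that of their DMR.

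Single genes of interest by their GO terms were seen only after the values were known. Glyma.08G075600, listed under DNA methylation or demethylation, had 15.9% in NJCMS5A (14.4 to 17.6) and 34.5% in NJCMS5B (32.7 to 36.4) over 208 cytosines from promoter to intron, the highest level in any DMR with at least 50 cytosines. The promoter of Glyma.06G257900, listed under recognition of pollen, had 6.74% and 16.8% over 322 cytosines. A pair of DMRs spanned pairs of adjacent genes with matching terms. At Chr02:5224274-5225471, Glyma.02G058200 and Glyma.02G058300 had 4.98% in NJCMS5A and 15.7% in NJCMS5B, and at Chr06:50862949-50863947, Glyma.06G319900 and Glyma.06G319800 had 2.52% and 12.9%. The first member of either pair was listed as a constituent of the ribosome with the same 31 terms, and the second with the same 57 terms, among them regulation of transcription.

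The largest differences were sought in the 117 DMRs that had 100 or more cytosines and a depth of 10 or more in each library, and only the first few stood out. The strongest decrease was in exons and introns of Glyma.03G264900 at Chr03:45776147-45779665, where 727 cytosines had 3.70% in NJCMS5A (3.36 to 4.08) and 24.4% in NJCMS5B (23.6 to 25.3). The gene had no GO term. The next, in Glyma.04G257400 at Chr04:52384924-52388647, had 10.6% and 30.3% over 804 cytosines. The 8 that followed fell by 11.4 to 13.3 points. A larger decrease, from 34.5% in NJCMS5B to 15.9% in NJCMS5A over 208 cytosines of Glyma.08G075600, missed the limit on depth with 9.95 in NJCMS5A. Those 8 included the promoter of Glyma.10G248800, an intron of Glyma.17G241200 (11.8% and 25.1%) and a DMR across Glyma.17G235400 and Glyma.17G235500 (1.29% and 14.6%). Further ones lay across Glyma.03G044400 and across Glyma.07G043500. Another 3 had no gene, at Chr19:1967948-1968942, Chr08:18904269-18905367 and Chr19:50649943-50652032.

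Of the 10 largest increases by the same rule, the first 3 had very unequal depths and are given with the deeply covered DMRs below. The remaining 7 rose by 10.6 to 12.4 points. They included the DMR without a gene at Chr03:19790230-19792295 (15.5% in NJCMS5A against 3.10% in NJCMS5B), upstream of the DNA-binding gene Glyma.04G257000 in its promoter (21.3% and 9.20%), an intron of Glyma.11G163900 (20.1% and 9.44%), the longest DMR, and Glyma.14G213200. Also in this list were Chr08:21254750-21257246 (16.3% and 5.13%, without a gene) and Chr10:17217582-17218578, one of the deeply covered DMRs. Glyma.20G014700 missed the rule by its depth of 9.94 in NJCMS5B, and had 19.4% and 4.53% over 538 cytosines.

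The largest difference of all had little behind it. In the promoter of Glyma.20G025000, a histidine kinase gene by its GO terms, 11 cytosines at Chr20:2703065-2703116 had 24.5% in NJCMS5A (16.9 to 34.05) and 52.4% in NJCMS5B (41.8 to 62.9). Fisher's exact test gave an adjusted p of 0.00018 from all calls and 0.41 with each cytosine counted once. Of the 13 DMRs with a level over 30% in a library, 2 had at least 50 cytosines.

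In 46 DMRs the library with less methylation was below 2%, so that the region was nearly free of methylation in 1 line. NJCMS5A was that line in 35 and NJCMS5B in 11, a hypo-methylated share of 76.1% (62.1 to 86.1). Of the 27 with at least 50 cytosines, 21 were hypo-methylated and 13 had a gene. Promoters shared by Glyma.07G272200 and Glyma.07G272300 had 0.222% in NJCMS5A (0.121 to 0.409) and 10.7% in NJCMS5B over 319 cytosines. Glyma.11G217500, listed with the WASH complex, which acts in actin assembly on endosomes, had 0.300% (0.194 to 0.462) and 11.4% over 461 cytosines from promoter to intron. Glyma.07G061400 had the reverse, 11.03% in NJCMS5A and 0.748% in NJCMS5B over 388 cytosines.

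A level of 0 was recorded in 6 DMRs, of at most 42 cytosines. It was in NJCMS5A at Chr05:20601692-20601884, where 0 of 522 calls allow a level of up to 0.575% and NJCMS5B had 10.1%. The other 3 in NJCMS5A, on chromosomes 10, 13 and 20, rested on 76 to 85 calls, which allow up to 3.53 to 3.95%, and NJCMS5B had 10.6 to 12.4%. The one on chromosome 13 lay in the promoter of Glyma.13G052300. In NJCMS5B the level was 0 in Glyma.16G211200 (0 of 112 calls, up to 2.68%) and at Chr17:38356776-38357400 (0 of 80 calls, up to 3.75%), with 10.5% and 10.2% in NJCMS5A.

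Neighbouring DMRs mostly changed the same way. There were 16 neighbouring pairs less than 20 kb apart, and 14 had the same direction. With 70.1% of all chromosome DMRs hypo-methylated, many pairs would share a direction in any case. The 12 pairs within 1000 bp, 11 of them of the same direction, are not independent, and 1 pair on chromosome 12 overlapped by 600 bp and thus shared calls. Among DMRs without a gene, both of the overlapping DMRs had low levels in NJCMS5A, 1.41% and 1.28%, against 11.7% and 11.5% in NJCMS5B. At the adjoining Chr20:9995567-9997162 and Chr20:9997174-9998566, NJCMS5A was higher in both, with 20.4% against 10.2% and 16.7% against 5.21%. A row of 3 hypo-methylated DMRs on chromosome 17 ended in the promoters of Glyma.17G235400 and Glyma.17G235500, with 8.90% against 18.9%, 1.29% against 14.6%, and 2.05% against 12.2% in NJCMS5A and NJCMS5B. One of the pairs of opposite direction lay in Glyma.03G264900. Upstream of its strongly hypo-methylated DMR, 638 bp away, 25 cytosines had 28.8% in NJCMS5A and 14.1% in NJCMS5B, an increase that had an adjusted p of 0.51 in Fisher's exact test with each cytosine counted once. The other, on chromosome 17, joined 2 of the deeply covered DMRs.

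A depth above 20 in a library was found in 9 DMRs, and in 8 of these the library with the greater depth had the lower level. Of the 9, 7 were hyper-methylated in NJCMS5A, unlike the chromosome DMRs as a whole. Glyma.19G038200, the largest increase, had 26.8% in NJCMS5A (26.0 to 27.6) at a depth of 10.5, and 4.78% in NJCMS5B (4.62 to 4.94) at a depth of 62.3. The DMR at Chr17:23596245-23597440 had 17.8% at 20.1 and 2.33% at 149. Its neighbour, in Glyma.17G185800, annotated as NADH dehydrogenase 5B (a subunit of mitochondrial complex I that is encoded in the mitochondrial genome of plants), went the other way, with 1.97% in NJCMS5A at a depth of 178 and 12.9% in NJCMS5B at 30.5. Glyma.15G187700, with receptor kinase terms, had 16.7% at 85.5 and 6.67% at 210. The DMR of Glyma.15G238700 and Glyma.15G238800, named for photosystem proteins that plants encode in the chloroplast genome, had 6.83% at 38.8 and 17.4% at 10.9. The study lists part of this DMR among the regions where its bisulfite clones did not match the sequencing.

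Counted per cytosine, the methylated calls differed by less than 1.5 times between the libraries in 8 of these 9 DMRs. The exception was Chr16, with 6.37 methylated calls in NJCMS5A and 2.01 in NJCMS5B. At Chr17:23596245-23597440 each cytosine had 3.57 methylated calls in NJCMS5A against 3.46 in NJCMS5B, but 16.5 and 145 unmethylated ones. In Glyma.17G185800 the values were 3.51 and 3.94 methylated, and 175 and 26.5 unmethylated. In Glyma.15G187700 they were 14.3 and 14, and 71.2 and 196. In Glyma.19G038200 they were 2.80 and 2.97, and 7.67 and 59.3. At Chr18:16873460-16875458 they were 3.43 and 3.24, and 9.57 and 32.3. The methylated calls were further apart in the remaining 3, with 2.65 and 1.89 at Chr15:44965292-44966382, 2.37 and 3.06 at Chr08:25904340-25905936 and 2.43 and 2.79 at Chr10:17217582-17218578, where the unmethylated calls were 36.2 and 9.01, 7.42 and 22.6, and 9.77 and 27.4. Over the 9 DMRs the higher of the 2 methylated counts was a median of 1.12 times the lower, and the higher unmethylated count 3.37 times the lower. In the other 302 DMRs it was the methylated calls that differed, by a median of 2.56 times over the 296 with calls in both, while the unmethylated calls differed by 1.20 times. The ratio of methylated calls was below 1.5 in 8 of the 9 and in 13 of the 296. Every DMR had a level ratio of at least 2, so near-equal depths by themselves make the methylated calls unequal. The contrast between the 9 and the others is thus partly fixed by the selection.

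**Figure D4:**
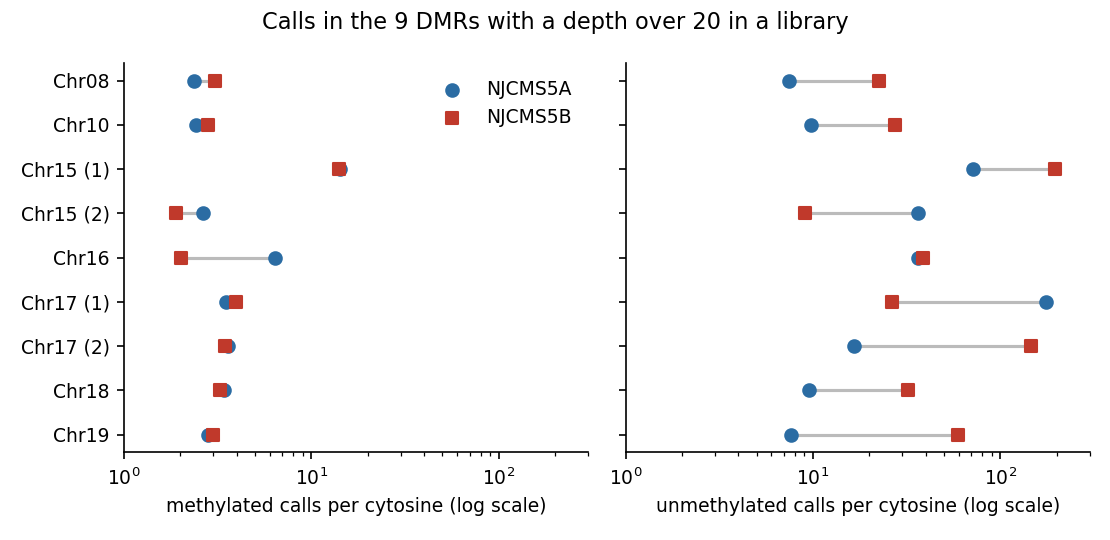
Methylated (left) and unmethylated (right) calls per cytosine, on log axes, in NJCMS5A (circles) and NJCMS5B (squares) for the 9 DMRs with a depth over 20 in a library, named by chromosome. On the left the marks are less than 1.5 times apart in all but Chr16, and on the right they are further apart than on the left in all but Chr16.

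The exception, at Chr16:28084933-28086330, had similar depths of 42.7 and 40.7, with 6.37 and 2.01 methylated calls per cytosine and 36.3 and 38.7 unmethylated ones. In the other 8 the counted cytosines were dense, each with at least 25 per 100 bp, and the median of all 9 was 37.1. Whether base content or coverage gave this density was not tested. Of the 189 other DMRs of at least 800 bp, 48 reached 25, and their median was 19.4. The origin of the additional unmethylated reads was not tested.

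Away from the 9, the level and the depth were related weakly. Across the 302 DMRs, Spearman's rho of the log2 ratio of depths with the difference in level was -0.11, and across all 311 it was -0.16. The points share the same 2 libraries, so rho is given as a description. Among the 300 of the 302 with unequal depths, the deeper library had the lower level in 165, and in 19 of the 29 with depths at least 1.5 times apart (65.5%, 47.3 to 80.1). Hypo-methylated were 74.5% (67.3 to 80.6) of the 161 where NJCMS5A was deeper and 67.6% (59.5 to 74.8) of the 139 where NJCMS5B was, and 216 of all 302. The share was lower where the depths were far apart, with 2 of the 9 deep DMRs and 4 of all 12 with depths at least 2 times apart.

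**Figure D5:**
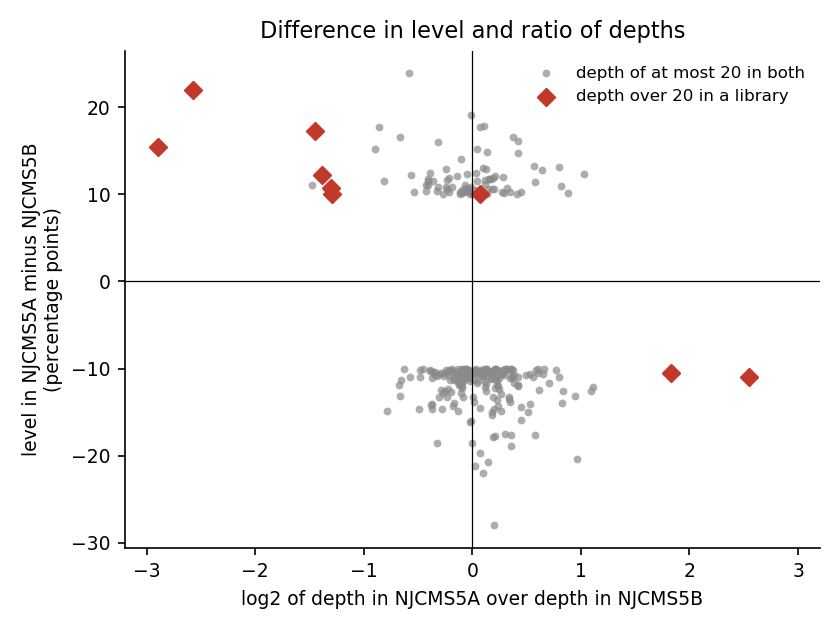
Difference in methylation level (NJCMS5A minus NJCMS5B, percentage points) against the log2 ratio of the depths for the 311 chromosome DMRs, with the 9 of depth over 20 as diamonds. No point lies between -10 and 10, the diamonds run from upper left to lower right apart from 1, and the other points centre on a ratio of 0.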

How the data were processed

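The authors aligned the reads with Bismark 0.12.5 to the soybean genome (gene names are of Williams 82, Wm82.a2.v1) and called DMRs with swDMR, a sliding-window program that uses a Fisher test. The deposited table of the authors holds each methylation level as a fraction of calls, and the mean depth per cytosine (coverage signal), not scaled between libraries. Level times depth times cytosines was whole for 3527 of 3527 DMRs (tolerance 1e-06 of the calls), which gave the calls. Calls were not corrected for failed conversion, which would raise both levels. The study reports a slightly lower conversion rate for NJCMS5B than for NJCMS5A, so levels in NJCMS5B would be raised slightly more. The lowest levels given above are of about the size of this error. The deposited p-values, ratios and differences of the authors, and a second DMR list, were not used.

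Per DMR a two-sided Fisher's exact test was run with Benjamini-Hochberg adjustment over 3527 DMRs, and 95% Wilson intervals, which cover counting error only. The limit for a level of 0 is 3 calls of the total. Python 3.11.15, scipy 1.17.1, pandas 2.3.3, numpy 2.4.6 and matplotlib 3.10.9 were used, and the test was checked on simulated data. Alternatives were a depth of 10, a difference of 15 points, 50 cytosines, no DMR with a depth over 20, each cytosine counted once, Bonferroni, no genes of other chromosomes, and end parts of 25%.

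Genes and DMRs named were those the study described, the 10 largest increases and decreases (100 cytosines and depth 10 required), those with a depth over 20, the extremes of length and cytosine number, levels of 0, DMRs with 3 or more genes, pairs under 20 kb apart, and the 3 of each direction nearest the smallest difference. Members and lists were chosen with earlier results of these data known. Primer sequences were read from the study's primer table. No genome of the files' build was used here, so DMR sequences and chromosome lengths are not given.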

Additional observations from a re-analysis of the deposited data

How the results depend on the processing

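No paired analysis was possible because each line had 1 library. The hypo-methylated share of the chromosome DMRs (70.1%) was 75.6% where both depths were at least 10 and 57.6% of the 33 DMRs with a difference of at least 15 points. The share with a gene (37.0%) was 53.5% at that depth, 24.2% at that difference and 53.3% with at least 50 cytosines. The hypo-methylated share of DMRs with a gene (76.5%) was 85.3% at that depth and 87.5%, 7 of 8 DMRs, at that difference, where that of DMRs without a gene (66.3%) was 48.0%, 12 of 25. The share of at least 800 bp (63.7%) was 92.9%, 36.4% and 90.8% under the 3 filters on depth, difference and cytosines, and the share in the outer 20% was 58.3%, 45.5% and 58.2%. Promoters were overlapped by 72.2% of the DMRs with a gene, and by 62.5% at the larger difference. The number called, 311, was 163 with each cytosine counted once and 201 by Bonferroni, and 127, 33 and 184 under the same 3 filters, where every DMR that was kept was called. The other 19 values stayed within the interval of the main share, or for the number called within 1.5 times, among them all without the DMRs with a depth over 20. These 19 include the 57.2% of DMRs in end parts of 25%. Such parts cover more of each chromosome than the main parts, which held 51.8%, so these 2 shares are unlike measures. Of 45 DMRs named by size, depth or gene, 41 kept their call with each cytosine counted once and 43 by Bonferroni. Among all 311 chromosome DMRs these shares were 52.4% and 64.6%. Among the 184 with at least 50 cytosines, 163 and 184 were called. The DMRs named by size had to have many cytosines and enough depth. The 2 counts for the named DMRs thus partly reflect how they were picked, and do not show that they are firmer than others. The DMRs under 50 cytosines had a median depth of 7.30 in NJCMS5A and 7.12 in NJCMS5B. The causes of these shifts were not tested, apart from the smaller number of DMRs under each filter.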
